A study of Homo sapiens with 4 samples.

Results

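The peaks described here lie outside the assembled chromosomes of hg38, on contigs that carry no position on a chromosome. They were chosen by name alone, as every peak of the control and TGF-β1 lists on a sequence other than chromosomes 1 to 22, X, Y or the mitochondrial genome. There were 442 such peaks of 21300 in all, 252 of 5307 in the control list and 190 of 15993 in the TGF-β1 list. They fell on 88 contigs. All were unlocalized contigs (106 control and 62 TGF-β1 peaks) or unplaced contigs (146 and 128). No peak of either list lay on an alternate contig, so alternate contigs, which the choice would have taken in, are not described.

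The lists come from chromatin immunoprecipitation sequencing (ChIP-seq) of human cells labelled HSC, which the labels describe as stem cells and progenitors. Control cells and cells given the cytokine TGF-β1 (transforming growth factor β1) at 20 ng/mL for 2 h each gave 1 ChIP library and 1 input library, which is sheared chromatin without immunoprecipitation. Both groups grew in IMDM medium with fetal bovine serum, human serum and antibiotics. The antibody and the number of donors are not given in the sources used here. A protocol text attached to all 4 libraries also names GDF11 at 100 ng/mL, and whether any of these cells received it is not given. With 1 library per group no test between conditions was possible, every difference is between 2 libraries, and intervals cover counting error only.

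An unlocalized contig is known to belong to a named chromosome but has no place on it, and an unplaced contig has no assigned chromosome. Much of this sequence is repeated: centromeric and pericentromeric satellite DNA, sequence of the short arms of the acrocentric chromosomes, ribosomal DNA and recent duplications. The assembly holds fewer copies of such repeats than the genome does, so reads from many copies are placed on few, and coverage there is usually high in ChIP and input alike. Reads that match several copies can also be placed on any of them.

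Counted over all peaks, the contigs took a larger share of the control list than of the TGF-β1 list. They held 4.75% of the control peaks (252 peaks, Wilson 95% interval 4.21% to 5.35%) and 1.19% of the TGF-β1 peaks (190 peaks, 1.03% to 1.37%). The ratio of TGF-β1 to control peaks was 0.754 on contigs (exact interval 0.621 to 0.914), whereas on chromosomes 1 to 22, X and Y it was 3.13 (15803 and 5055 peaks, 3.03 to 3.23). The intervals of the 2 ratios did not overlap, but they take each peak as an independent count. Contig peaks stood in rows, so these intervals are likely too narrow, and they do not measure a difference between conditions. Unlocalized contigs had a ratio of 0.585 (0.420 to 0.808) and unplaced contigs one of 0.877 (0.686 to 1.12), an interval that includes equal numbers.

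Which list had more on the contigs depended on how peaks were counted. When peaks of a list within 1 kb of one another were taken as 1 site, the contigs held 132 control and 162 TGF-β1 sites, and the ratio turned to 1.23. The chromosomes held 4301 control and 14966 TGF-β1 sites. The order of the shares did not turn, with 2.98% of control and 1.07% of TGF-β1 sites on contigs. Control peaks stood in closer rows, with 1.91 peaks per site against 1.17 in the TGF-β1 list. The peaks covered 85.1 kb of contig sequence in the control list and 34.4 kb in the TGF-β1 list.

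Most contigs had peaks of only 1 list, which is the only outcome open to a contig with a single peak over both lists. Of the 88, 25 had control peaks only (99 peaks), 37 had TGF-β1 peaks only (86 peaks) and 26 had both (153 control and 104 TGF-β1 peaks). Among those 26, the control list had more peaks on 12, the TGF-β1 list on 8, and 6 had equal numbers. The control peaks were the more concentrated, since the 5 richest contigs held 120 of them (47.6%), against 69 (36.3%) of the TGF-β1 peaks on that list's 5 richest. A single peak was all that 18 contigs had in the control list and 29 in the TGF-β1 list.

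The unplaced contig chrUn_GL000216v2 was the richest, with 41 control and 6 TGF-β1 peaks. Next came chrUn_KI270442v1 with 19 and 17, and chrUn_GL000226v1 with 13 and 22, the only one of the 3 with more TGF-β1 peaks. Among unlocalized contigs, chr1_KI270709v1_random (23 control peaks), chr17_KI270729v1_random (21) and chr17_KI270730v1_random (11) had no TGF-β1 peak. The reverse held for chr2_KI270715v1_random (12 TGF-β1 peaks), chr16_KI270728v1_random (9), chr2_KI270716v1_random (6) and chr5_GL000208v1_random (5), which had no control peak.

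**Figure D1:**
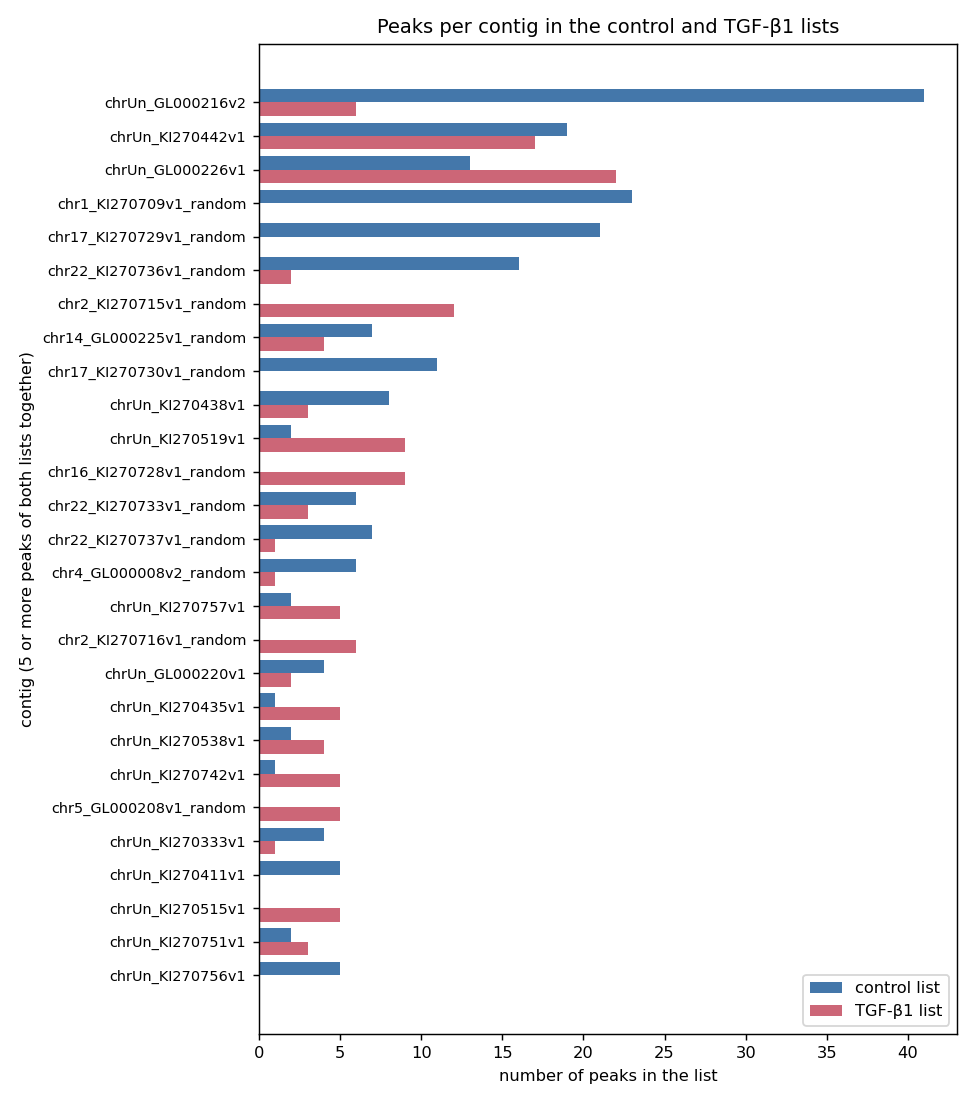
Number of peaks in the control list (blue) and the TGF-β1 list (red) on each of the 27 contigs whose peaks numbered at least 5 over both lists, which hold 206 of the 252 control and 130 of the 190 TGF-β1 contig peaks. Several contigs have bars of 1 colour only, such as chr1_KI270709v1_random with 23 control peaks and chr2_KI270715v1_random with 12 TGF-β1 peaks.

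The remaining contigs with at least 5 peaks were mixed. More control peaks lay on chr22_KI270736v1_random (16 control, 2 TGF-β1), chr14_GL000225v1_random (7 and 4), chr22_KI270737v1_random (7 and 1), chr22_KI270733v1_random (6 and 3) and chr4_GL000008v2_random (6 and 1). The same held for the unplaced contigs chrUn_KI270438v1 (8 and 3), chrUn_GL000220v1 (4 and 2) and chrUn_KI270333v1 (4 and 1), and chrUn_KI270411v1 and chrUn_KI270756v1 had 5 control peaks each and no other. More TGF-β1 peaks lay on chrUn_KI270519v1 (2 control, 9 TGF-β1), chrUn_KI270757v1 (2 and 5), chrUn_KI270538v1 (2 and 4), chrUn_KI270751v1 (2 and 3), chrUn_KI270435v1 (1 and 5), chrUn_KI270742v1 (1 and 5) and chrUn_KI270515v1 (0 and 5). The other 61 contigs held 46 control and 60 TGF-β1 peaks together.

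By chromosome of origin, the unlocalized control peaks came mostly from contigs of chromosomes 22 (35 peaks), 17 (32) and 1 (23). The unlocalized TGF-β1 peaks came mostly from contigs of chromosomes 2 (18 peaks), 14 (10), 16 (9) and 22 (9). On the placed part of the same chromosomes the TGF-β1 list was longer in each case, for example 135 against 55 peaks on chromosome 22, 336 against 131 on chromosome 17 and 1162 against 339 on chromosome 2. Contigs of chromosomes 1, 3, 4, 17 and 22 ran opposite to their chromosomes, with more control than TGF-β1 peaks (for chromosome 17, 32 against 1, and for chromosome 1, 23 against 5).

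Pileup, the number of ChIP tags that cover a peak's summit after extension to the fragment length, was far higher on contigs in the control list. Its median was 186.5 tags (lowest 18, highest 296; order-statistic 95% interval of the median 172 to 196) in the 252 control peaks and 35.5 tags (lowest 13, highest 245; 33 to 42) in the 190 TGF-β1 peaks. On the chromosomes the medians were 22 and 19 tags. Pileup above 100 tags was reached by 227 control contig peaks (90.1%) and 37 TGF-β1 contig peaks (19.5%), against 28.2% and 4.68% of the chromosome peaks. The 2 lists overlapped in pileup from 18 to 245 tags, but most control contig peaks lay above most TGF-β1 ones.

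Both classes of contig showed this. Median pileup was 183 tags on unlocalized and 187 on unplaced contigs in the control list, and 25 and 46.5 tags in the TGF-β1 list. Among the 26 contigs with peaks of both lists, the median control pileup was the higher on 23. After duplicates were removed, 36280696 ChIP tags remained for control cells and 45984282 for TGF-β1 cells, so the higher pileups came from the smaller library. Per 1000000 of these tags the medians were 5.14 and 0.772.

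Control contig peaks were also long. Their median length was 225.5 bp (lowest 148, highest 3808; interval of the median 213 to 254), against 166.5 bp (136 to 434; 159 to 173) in the TGF-β1 list. On the chromosomes the medians were 176 and 159 bp. Over 500 bp were 32 control contig peaks (12.7%), 11 of them over 1000 bp, against 3.62% of the control chromosome peaks and no TGF-β1 contig peak. The caller sets the shortest peak at the fragment length (148 bp for the control, 136 bp for the TGF-β1 library), so the lower ends of the 2 ranges differ by construction.

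**Figure D2:**
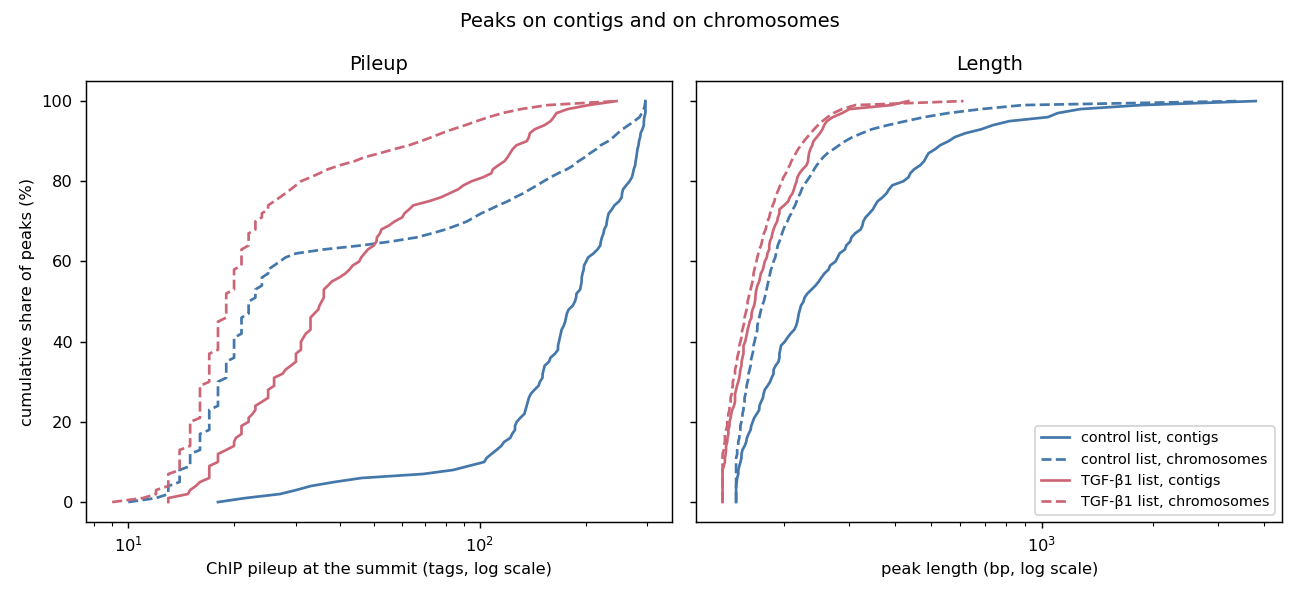
Cumulative share of peaks (%) against ChIP pileup in tags (left) and peak length in bp (right), both on log axes, for contig peaks (solid) and chromosome peaks (dashed) of the control (blue) and TGF-β1 (red) lists. The solid blue curves lie to the right of the others, with medians of 186.5 tags and 225.5 bp.

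Fold enrichment ran the other way. The authors' value divides pileup by local background after 1 is added to each, and the background is input coverage scaled to the depth of the ChIP library. The median fold of contig peaks was 1.86 in the control list (lowest 1.37, highest 6.69) and 2.58 in the TGF-β1 list (1.31 to 6.33), against 3.05 and 3.47 on the chromosomes. A fold under 2 was found in 185 control contig peaks (73.4%) and 33 TGF-β1 contig peaks (17.4%), and in 17.7% and 2.12% of the chromosome peaks.

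Significance against background followed pileup rather than fold. The median −log10 q was 10.3 for control contig peaks and 4.09 for TGF-β1 contig peaks, beside 4.56 and 3.78 on the chromosomes. A −log10 q of at least 5 was reached by 207 control contig peaks (82.1%, where the whole list has 46.9%) and 77 TGF-β1 contig peaks (40.5%, whole list 31.1%). At least 10 was reached by 133 (52.8%, whole list 26.2%) and 18 (9.47%, whole list 8.76%).

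Nearly all control contig peaks lay over high local background. It exceeded 5 times the genome-wide value at 244 of 252 (96.8%, interval 93.9% to 98.4%), where the whole control list has 40.6%. In the TGF-β1 list 101 of 190 did so (53.2%, 46.1% to 60.1%), where the whole list has 17.4%. The 8 control peaks over low background had pileups of 18 to 38 tags and a median fold of 3.65, beside 3.54 for the 3147 chromosome peaks of that kind. The 89 TGF-β1 peaks over low background had pileups of 13 to 44 tags and a median fold of 3.55, beside 3.65 for 13114. Over low background the contig ratio of TGF-β1 to control peaks was 11.1 (5.41 to 26.6), and over high background it was 0.414 (0.325 to 0.524). This split was not particular to contigs. Among chromosome peaks, the low class held 13114 of the TGF-β1 list against 3147 of the control list, and the high class 2689 against 1908. The TGF-β1 excess there was also smaller where background was high, although it did not turn.

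Coverage in the control list reached the largest value the caller can report. With 1 tag kept per position on each strand and tags extended to 148 bp, a base can be covered by at most 296 tags. Exactly that pileup was found in 10 of the 252 control contig peaks and 42 of the 5055 control chromosome peaks. A pileup of at least 90% of this ceiling was found in 51 control contig peaks (20.2%, interval 15.7% to 25.6%), where the whole control list has 6.61%. In the TGF-β1 list, with a ceiling of 272 tags, 1 contig peak reached 90% (245 tags), where the whole list has 0.0125%.

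The input was also near its ceiling at many of these peaks. The control input held 66537905 tags after removal of duplicates, 1.83 times its ChIP library, and was scaled down by the caller, which puts the highest possible local background at 161 tags. Pileup and local background were both at 90% or more of their ceilings at 39 control contig peaks (15.5%, interval 11.5% to 20.5%), where the whole control list has 5.54%. Where both libraries are at the ceiling, the deposited fold comes to 1.83 for control peaks and to 1.02 for TGF-β1 peaks, whose input held 46802425 tags, 1.02 times its ChIP library. A TGF-β1 peak with both values at 90% or more of their ceilings would have a fold of at most 1.13. The lowest fold called in that list was 1.31, so the count of 0 there follows from that lowest fold.

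With the scaling undone, ChIP and input coverage were nearly equal at control contig peaks. The local background before scaling had a median of 182 input tags, beside the 186.5 ChIP tags, and the median ratio of ChIP to unscaled input was 1.02 (lowest 0.749, highest 5.21). The ChIP pileup did not exceed unscaled input at 106 of the 252 peaks (42.1%, interval 36.1% to 48.2%), where the whole control list has 11.7%. It was at most 1.2 times unscaled input at 217 (86.1%, 81.3% to 89.8%), where the whole list has 24.7%.

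At the TGF-β1 contig peaks the local background before scaling had a median of 13.0 input tags, and the median ratio of ChIP to unscaled input was 2.69. The scaling bears on how low this ratio goes in a called peak. A ratio of 1.2 amounts to a deposited fold of about 1.22 in the TGF-β1 list, under that list's lowest called fold of 1.31. In the control list a ratio of 1 already amounts to a fold of about 1.83, above its lowest called fold of 1.37. No TGF-β1 peak was at or below 1.2, a count that follows from the lowest called fold and adds nothing to it. The median ratios of chromosome peaks were 1.82 (control) and 4.00 (TGF-β1). Leaving out peaks at or below 1.2 therefore removes control peaks only. It left 35 control and 190 TGF-β1 contig peaks, which turned the ratio of numbers to 5.43 and the order of the shares to 0.876% of the control and 1.19% of the TGF-β1 list. The difference in input depth makes this limit one-sided, so neither turn can be read as a difference between conditions. The limit removed 86.1% of the control contig peaks and 21.7% of the control chromosome peaks. Tag length differed along with treatment as well, since control tags measured 60 bp and TGF-β1 tags 43 bp. The part of the ceiling, of input depth and of tag length in the difference between the lists was not tested. Values exist only where a peak was called.

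**Figure D3:**
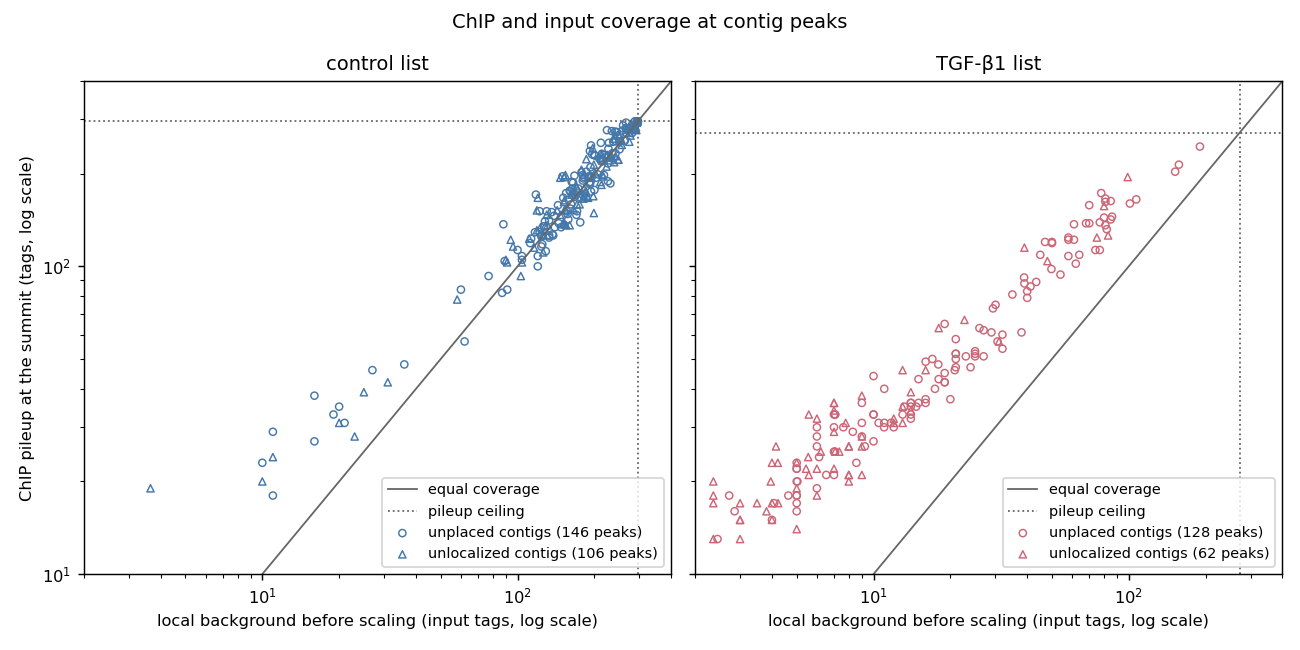
ChIP pileup at the summit against the local background before scaling, in tags on log axes, for contig peaks of the control list (left) and the TGF-β1 list (right), with unplaced contigs as circles and unlocalized contigs as triangles. The solid line marks equal coverage and the dotted lines the ceiling of 296 (control) or 272 (TGF-β1) tags. Control peaks gather along the line up to the ceiling, and the TGF-β1 peaks lie above it, as the scaling requires of any peak called there.

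The contig chr1_KI270709v1_random held 18 of the 51 control contig peaks at 90% or more of the ceiling. Its 23 control peaks had pileups of 225 to 296 tags (median 283) and a median fold of 1.83. They covered 62.8% of the bases from 24 to 17612, its first and last peak bases. The local background before scaling had a median of 289 input tags, and at 13 peaks the ChIP pileup did not exceed it. The TGF-β1 list had no peak on this contig.

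Both contigs of chromosome 17 that carried control peaks differed in level. On chr17_KI270729v1_random the 21 control peaks had pileups of 105 to 293 tags (median 221), and 1 of them was 2068 bp long. On chr17_KI270730v1_random the 11 peaks ran from 103 to 232 tags (median 136) and none was at 90% of the ceiling. The median folds were 1.82 and 1.68, and ChIP pileup did not exceed unscaled input at 12 and 8 peaks. The only TGF-β1 peak on a contig of chromosome 17 lay on chr17_GL000205v2_random (pileup 31).

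On chrUn_GL000216v2 the 2 lists occupied different stretches. The first 34 control peaks stood between bases 33 and 29856, with pileups of 116 to 271 tags (median 187.5), and no TGF-β1 peak lay there. The 6 TGF-β1 peaks stood between 142385 and 173969, with pileups of 81 to 166 tags, a stretch that also held 3 control peaks (123, 171 and 231 tags). A single pair overlapped, at 166697 to 166867 in the control list (pileup 123) and 166700 to 166854 in the TGF-β1 list (pileup 165).

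The same separation was seen on chrUn_KI270442v1 and chrUn_KI270438v1. On chrUn_KI270442v1, 13 of the 19 control peaks lay between bases 84536 and 96212, with pileups of 125 to 203 tags, 3 lay before them and 3 after. All 17 TGF-β1 peaks lay beyond that stretch, between 109259 and 369444, with pileups of 19 to 162 (median 44). On chrUn_KI270438v1 the 3 TGF-β1 peaks lay between 20335 and 21848 (pileups 40 to 54), and the 8 control peaks between 46602 and 112481 (pileups 150 to 296). The longest contig peak of all, 3808 bp, was among the latter.

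**Figure D4:**
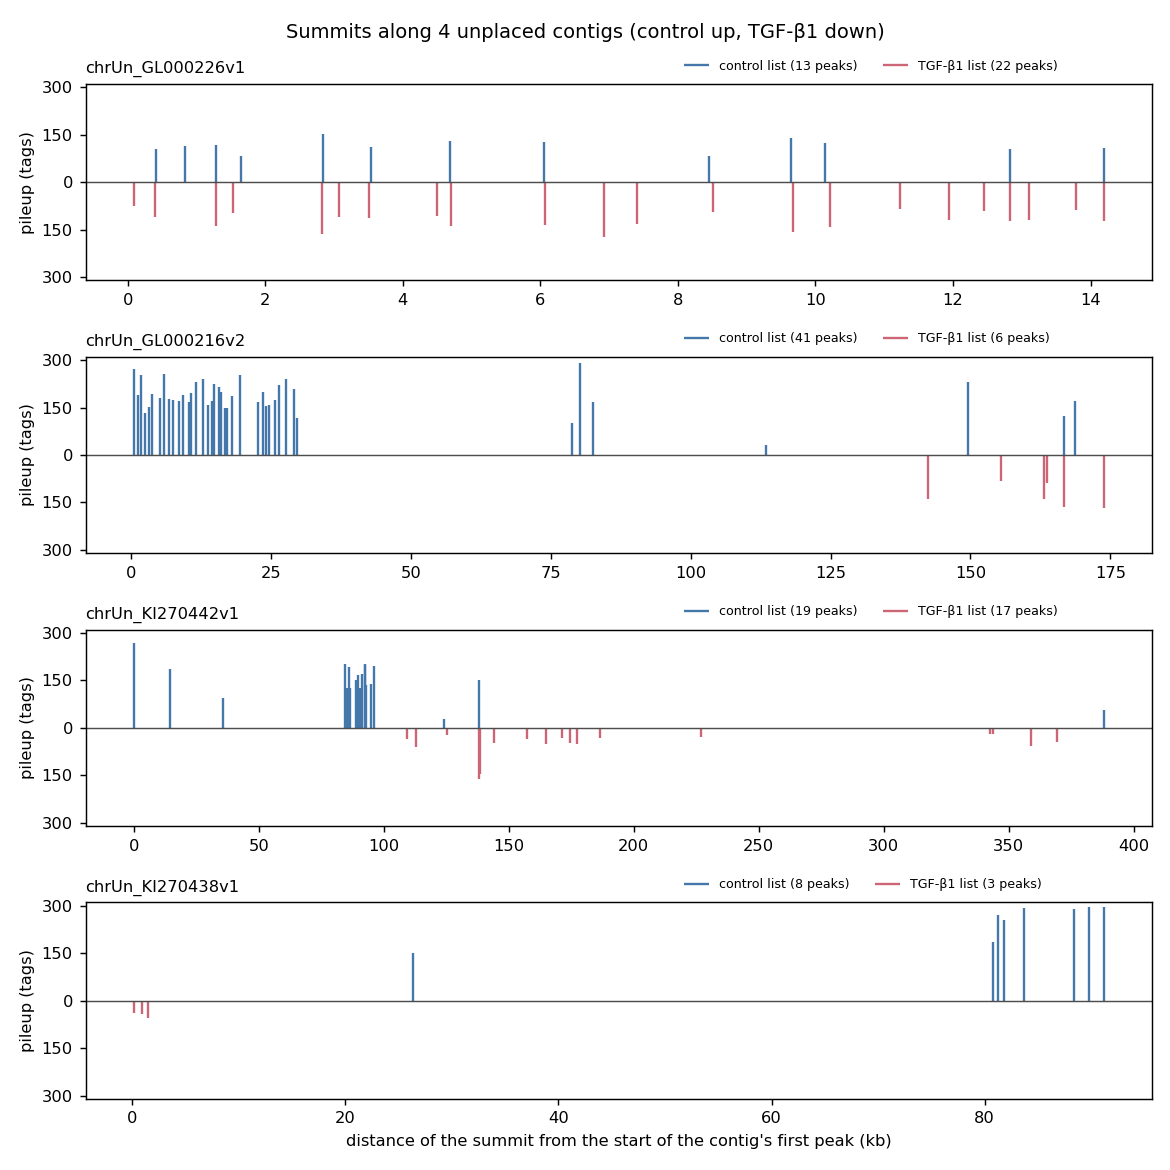
Summits of control peaks (blue, upward) and TGF-β1 peaks (red, downward) along 4 unplaced contigs, with bar height the ChIP pileup in tags and the horizontal axis the distance in kb from the start of the contig's first peak. The lists interleave on chrUn_GL000226v1 (13 and 22 peaks) and occupy mostly different stretches of the other contigs.

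Most contig peaks of either list met no peak of the other. Counted from 1 bp, 21 of 252 control peaks (8.33%, interval 5.51% to 12.4%) and 22 of 190 TGF-β1 peaks (11.6%, 7.77% to 16.9%) met a peak of the other list, where the whole lists have 14.4% and 4.81%. The control share was thus below, and the TGF-β1 share above, that of its whole list. All 22 pairs lay on 9 unplaced contigs, and none of the 168 peaks on unlocalized contigs overlapped. Over high local background alone, 8.61% of control contig peaks overlapped (interval 5.70% to 12.8%), against 33.7% of chromosome peaks (31.6% to 35.9%). The corresponding TGF-β1 shares were 21.8% (14.8% to 30.8%) and 23.8% (22.3% to 25.5%), whose intervals overlap.

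Of the 22 pairs, 13 lay on 1 contig, chrUn_GL000226v1. They came from 12 of its 13 control peaks and 13 of its 22 TGF-β1 peaks. Its pileups were alike in the lists, 82 to 151 tags (median 113) for control peaks and 75 to 173 tags (median 119.5) for TGF-β1 peaks. No peak there was at 90% of the ceiling. The local background before scaling differed more, with medians of 112 and 59.5 input tags, and the median folds were 1.89 and 2.04. Without this contig the overlap fell to 3.77% of control and 5.36% of TGF-β1 contig peaks.

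The peaks on chrUn_GL000226v1 coincided closely in position. Summits of its 13 pairs were 3 to 187 bp apart (median 18 bp), and 10 pairs were within 50 bp. The strongest pair had pileups of 151 (control, 3429 to 3614, fold 2.25) and 163 tags (TGF-β1, 3429 to 3582, fold 1.94), with summits 13 bp apart. In tags, the TGF-β1 pileup was the higher in 12 of the 13 pairs, from a ChIP library with 1.27 times the tags of the control. Relative to library size it was the higher in 0 of 13, with a median ratio to control of 0.883 (0.661 to 0.943). This ratio takes no account of the extension length, 148 bp for control and 136 bp for TGF-β1 tags. The TGF-β1 fold was the higher in 7, and the ratio of ChIP to unscaled input in all 13.

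The 9 pairs on other contigs differed in fold. The TGF-β1 pileup was the higher in 6 of the 9 in tags and in 1 relative to library size, and the TGF-β1 fold in none. This order of folds depends on the input scaling, since control input held 1.83 and TGF-β1 input 1.02 times the tags of its ChIP library. With the scaling undone, the ratio of ChIP to input was the higher in TGF-β1 in all 9 pairs. Neither order can be read as a difference between conditions. The pairs of highest control pileup lay on chrUn_KI270336v1, with 273 control and 214 TGF-β1 tags and folds of 2.04 and 1.38, and on chrUn_KI270333v1, with 252 and 245 tags and folds of 2.02 and 1.31. Their local background before scaling was 245 and 157 input tags on the former and 228 and 190 on the latter. Next, on chrUn_GL000220v1, the pileups were 189 and 203 tags and the folds 1.53 and 1.36. The pair on chrUn_KI270442v1 had 151 and 162 tags and folds of 2.11 and 2.02. Over all 22 pairs the ratio of TGF-β1 to control pileup had a median of 1.08 in tags (0.784 to 1.34). Relative to library size, with extension length left aside, it was 0.852 (0.618 to 1.06), so the direction turned with the scaling.

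**Figure D5:**
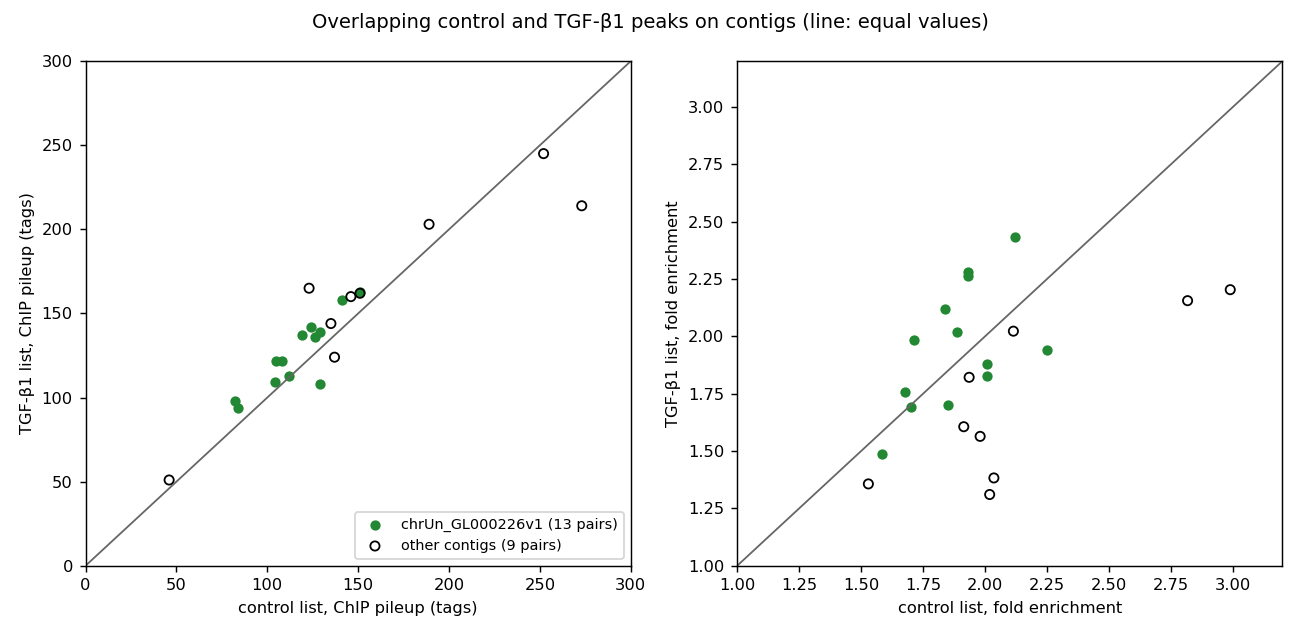
TGF-β1 against control values for the 22 overlapping pairs of contig peaks, as ChIP pileup in tags (left) and fold enrichment (right), with chrUn_GL000226v1 filled and other contigs open. The line marks equal values: pileups lie close to it, with the TGF-β1 value higher in 18 pairs in tags but in 1 relative to library size, and the folds of the 9 pairs on other contigs all lie below it. The order of these 9 pairs turned when the input scaling in the fold was undone.

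Contigs known to carry ribosomal DNA had peaks in both lists. The ribosomal DNA repeat encodes the RNA of the ribosome's subunits in tandem units on the acrocentric short arms, and chrUn_GL000220v1 and chr22_KI270733v1_random hold copies of it. On chrUn_GL000220v1 the 4 control peaks had pileups of 146, 194, 189 and 179 tags between 139124 and 145583, and the 2 TGF-β1 peaks, both inside that stretch and both overlapping a control peak, had 160 and 203 tags. On chr22_KI270733v1_random the 6 control peaks had 137 to 223 tags between 157169 and 165299, and the 3 TGF-β1 peaks had 126, 31 and 36 tags between 164108 and 175177.

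None of the peaks on chr22_KI270733v1_random overlapped between lists. The first and second control summits were 3982 bp apart on chrUn_GL000220v1 and 4000 bp apart on chr22_KI270733v1_random, a pair of distances picked after the values were seen. The later distances did not match, at 1997 and 291 bp on the former and 230, 268, 1348 and 2072 bp on the latter. The second summit on chr22_KI270733v1_random lay on the last base of its peak (161036 to 161277), which had the lowest fold of the control contig peaks (1.37). Reads from one copy of the repeat can be placed on the other, so these peaks are uncertain as to contig. The position of the peaks within the repeat unit was not analysed here.

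Control coverage was also high on contigs whose peaks all ended before base 5000. Of the 88 contigs, 29 had no peak base at or beyond 5000 in either list (contig lengths were not used here). They held 39 control peaks with pileups of 38 to 296 tags (median 264), 19 of them at 90% or more of the ceiling, and 15 TGF-β1 peaks with pileups of 15 to 245 tags (median 36). The control peaks there covered 16.4 kb and the TGF-β1 peaks 2.74 kb. On chrUn_KI270333v1 the 4 control peaks covered 79.7% of the bases from the first to the last peak, and on chrUn_KI270411v1 the 5 peaks covered 70.1%. A peak began within the first 200 bp of its contig in 15 control and 5 TGF-β1 cases.

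The control contig peaks of highest pileup were all tied at 296 tags. The first 5 by fold among them lay on chrUn_KI270310v1 (581 to 1118, fold 1.88), chr1_KI270709v1_random (14974 to 15315, fold 1.87; 5179 to 5962 and 11239 to 11559, both 1.85) and chrUn_KI270467v1 (1916 to 3877, fold 1.85). Their local background before scaling was 288 to 293 input tags. None overlapped a TGF-β1 peak. The 5 TGF-β1 contig peaks of highest pileup lay on chrUn_KI270333v1 (245 tags, fold 1.31), chrUn_KI270336v1 (214, fold 1.38), chrUn_GL000220v1 (203, fold 1.36), chr14_GL000225v1_random (195, fold 1.99) and chrUn_GL000226v1 (173, fold 2.24). The first 3 of these overlapped a control peak, and they had the 3 lowest folds of the whole TGF-β1 list (ranks 15991 to 15993).

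The contig peaks of highest fold had low pileups. In the control list the first was on chr4_GL000008v2_random (186883 to 187094), where 19 tags gave a fold of 6.69 over the genome-wide background, at a −log10 q of 9.17. It ranked 4 by fold in the whole control list and was the only control contig peak with a fold of at least 5. The next were on chrUn_KI270746v1 (29 tags, fold 4.29), chrUn_KI270414v1 (38, fold 4.01), chrUn_GL000214v1 (23, fold 3.72) and chr22_KI270735v1_random (24, fold 3.57). None of the 5 overlapped a TGF-β1 peak.

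In the TGF-β1 list the first by fold was on chr16_KI270728v1_random (156676 to 156855), where 20 tags gave a fold of 6.33 at a −log10 q of 8.74. It ranked 74 by fold in the whole list. The next were on chr15_KI270727v1_random (210716 to 210853, 18 tags, fold 5.73) and chr14_GL000009v2_random (32467 to 32602, 17 tags, fold 5.43). The last of the 5 stood on chr2_KI270716v1_random (54479 to 54630, 26 tags, fold 5.32, and 93867 to 94005, 33 tags, fold 5.25). All 5 were on unlocalized contigs, and none overlapped a control peak. A fold of at least 5 was found in 6 TGF-β1 contig peaks (3.16%), beside 6.14% of the chromosome peaks.

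The contigs of chromosomes 2 and 16 resembled the chromosomes in their values. On chr2_KI270715v1_random the 12 TGF-β1 peaks had pileups of 17 to 46 tags (median 22.5) and a median fold of 3.64. On chr2_KI270716v1_random the 6 peaks had 17 to 36 tags and a median fold of 4.09, and on chr16_KI270728v1_random the 9 peaks had 13 to 39 tags and a median fold of 4.05. The medians over TGF-β1 chromosome peaks were 19 tags and a fold of 3.47. No contig of these chromosomes had a control peak.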

How the data were processed

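ChIP and input libraries of control and TGF-β1 treated cells were sequenced, and the authors deposited 1 peak list per condition. Bowtie2, hg38 and MACS2 2.1.0 are named per the submitters' processing notes, whereas MACS 2.2.7.1 is named per the file headers. Peaks of each ChIP library were called over the matching input with a q-value limit of 0.05, 1 tag kept per position and the larger library scaled to the smaller, per the file headers. Mapping-quality filters are not given in the sources used here. Pileup, the coverage signal at the summit, and fold enrichment, a ratio to local background, are the authors' values, as are the p-value and q-value of each peak, both deposited as −log10. Tags were 60 bp long (control) and 43 bp long (TGF-β1), per the file headers.

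Contig classes follow from names: unlocalized contigs end in _random, unplaced ones start with chrUn. Local background was computed as (pileup + 1) / fold − 1, and divided by the ratio of ChIP to input tags to undo scaling. It then fell within 0.01 of a whole number at 249 of 252 control and 138 of 190 TGF-β1 contig peaks. Overlap was counted from 1 bp. Shares have Wilson 95% intervals, ratios of counts exact ones, and medians order-statistic ones. Python 3.11.15 and SciPy 1.17.1 were used, and functions were tested on simulated data. Contigs with at least 5 peaks, the 5 peaks per list of highest fold and of highest pileup, and the pairs of highest control pileup are named. The gene table used here does not name contigs, so genes were not assigned. Contigs and measures were chosen with earlier results of these data known. The ceiling and the comparison with unscaled input were added after the values were seen.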

Additional observations from a re-analysis of the deposited data

How the results depend on the processing

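Each condition had 1 ChIP library, so no library could be left out. No paired analysis was possible because each group held 1 ChIP library. When peaks under a −log10 q of 5 were left out, the TGF-β1 contig peaks numbered 77 and the ratio of TGF-β1 to control peaks was 0.372. The contigs then took 8.32% of the control and 1.55% of the TGF-β1 list, 4.35% of control contig peaks overlapped, and median pileups were 198 and 50 tags, with a TGF-β1 median fold of 2.92. At a limit of 10 the numbers were 133 and 18, the ratio 0.135, the control share 9.58%, the overlaps 0.752% and 5.56%, the median pileups 241 and 119.5 tags, the folds 1.91 and 2.42 and the lengths 293 and 177.5 bp (control first throughout). With lists of equal length by fold, 34 TGF-β1 contig peaks remained, 0.641% of the list, with a ratio of 0.135, an overlap of 0% in both lists, and medians of 23 tags, a fold of 4.29 and 150 bp. Without chrUn_GL000216v2, the contig with most peaks, the control share was 4.01%. Counting sites gave 132 control sites on contigs, 2.98% of the control sites (TGF-β1 1.07%), and a reversed ratio of 1.23. Per 1000000 tags the median pileups were 5.14 and 0.772. Requiring 50% of the shorter peak, or a summit inside the other peak, left the overlap at 8.33% and 11.6%.

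The following were added after seeing the data. Without chrUn_GL000226v1 the overlaps were 3.77% and 5.36%. Without peaks at 90% or more of the ceiling, the control share was 4.06%, its medians 168 tags and 199 bp, and the ratio 0.940. Without peaks at or below 1.2 times unscaled input, 35 control peaks were left (0.876% of the list), with medians of 78 tags, a fold of 2.52 and 172 bp, a TGF-β1 overlap of 1.58% and a reversed ratio of 5.43. This limit could remove control peaks only, since the lowest called TGF-β1 fold lay above it. Relative to library size, the median pileup ratio of the pairs reversed from 1.08 to 0.852. The cause of these shifts was not tested beyond what each selection removes by construction. Depth limits which contig peaks could be called, and coverage above the ceiling cannot be told apart.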
